A study of Mus musculus with 3 samples.

Results

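The cells described here are 290 neurons of the mouse nucleus accumbens that were chosen by the UMI counts of Tshz1, Pcdh8, Casz1 and Lypd1 in each cell, out of 10291 cells kept from 11625 deposited. A kept cell had at least 300 genes with a UMI and at most 20% of its UMIs in mitochondrial genes; a UMI is a molecular tag that counts each captured RNA molecule once. A gated neuron held at least 3 UMIs over these 4 genes with at least 2 of them detected, 0 UMIs of Adora2a and Gpr6, 0 UMIs of Slc17a7, Mog and Aqp4, and at least 1 UMI over the neuronal transcripts Snap25, Syt1, Meg3 and Snhg11. The gate used measured values, so these 13 genes are not results. All cells came from Thy1::ChR2 mice, which carry channelrhodopsin (ChR2) under the Thy1 promoter, and all were taken after labelling with FLiCRE while ChR2 was stimulated with light in the accumbens. FLiCRE is a tool that turns a rise of calcium during light into transcription of a reporter. The tissue was a coronal slice of 400 um, so cells from the rim of the accumbens and from neighbouring regions can be present. The series has 3 samples in 1 group and no unstimulated or unlabelled group; age, sex, the number of animals per sample and the cells in which the Thy1 promoter is active are not given in the sources used here. Every comparison was therefore made between cell classes within the same libraries.

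Spiny projection neurons, which release GABA, make up most neurons of the accumbens. Direct-pathway spiny neurons carry the dopamine receptor Drd1 with the peptides substance P (from Tac1) and dynorphin (from Pdyn), and indirect-pathway spiny neurons carry Adora2a, Gpr6, Drd2 and enkephalin (from Penk). Smaller spiny populations have been described outside this pair, among them Tshz1 neurons of striosomes and "eccentric" spiny neurons with Pcdh8, Casz1, Otof and Col11a1. Tshz1 and Casz1 encode zinc finger transcription factors, Pcdh8 encodes a protocadherin of the neuronal surface, and Lypd1 encodes a membrane-anchored modulator of nicotinic receptors. Foxp2, a forkhead transcription factor, is a marker often given for such neurons and stood outside the gate.

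The gated neurons numbered 19, 166 and 105 in libraries 1, 2 and 3, where the number is the suffix of the cell barcode and is only a name. They made up 2.11% of the neurons of library 1 (exact 95% binomial interval 1.27% to 3.27%), 4.01% of library 2 (3.43% to 4.65%) and 10.6% of library 3 (8.76% to 12.7%), on average 5.57% ± 4.46 (SD, n = 3 libraries). The share was thus lowest in library 1 and highest in library 3; the intervals of the 3 libraries did not overlap. Cells of at least 1000 UMIs were also thinned to 1000 UMIs and gated again, and shallower cells were left out. In library 1 this left out 13 of the gated neurons and 421 of the other neurons. The shares were then 0.889% (0.243% to 2.26%), 1.36% (0.999% to 1.81%) and 4.14% (2.88% to 5.73%), of 450, 3378 and 822 neurons. Library 3 was still the highest, while the intervals of libraries 1 and 2 now overlapped. The median gated neuron held 835, 2209 and 3515 UMIs in the 3 libraries, against 1024, 2573 and 2616 in all other neurons, and the summed counts of the gated neurons were 16942, 446664 and 382267 UMIs. Library 1 gave the fewest gated neurons and the fewest UMIs. Classic Drd1 neurons and Adora2a neurons, compared further on, had medians of 1226, 2675 and 2921.5 and of 1057, 3259.5 and 3242 UMIs. Libraries shared 13, 7 and 22 barcode sequences in pairs, no pair shared a barcode between gated neurons, and 2 gated neurons had a barcode that also stood in another library.

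The label of a Tshz1 and Pcdh8 neuron was only partly met. Tshz1 was detected in 91.0% of the gated neurons and Lypd1 in 83.1%, but Pcdh8 in 45.9% and Casz1 in 15.9%. The pair of Tshz1 and Lypd1 alone brought in 130 of the 290 cells (44.8%), and 7 cells held all 4 genes. Most of these cells thus had no Pcdh8 UMI, and they are called gated neurons below. At the threshold, the 112 cells with a sum of exactly 3 had a Foxp2 UMI in 66.1%. The 144 cells left out with a sum of 2 had one in 58.3%, and the 178 cells with a sum of 4 or more had one in 85.4%. Cells just outside the threshold thus differed from those just inside by less than those differed from cells well inside.

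**Figure D1:**
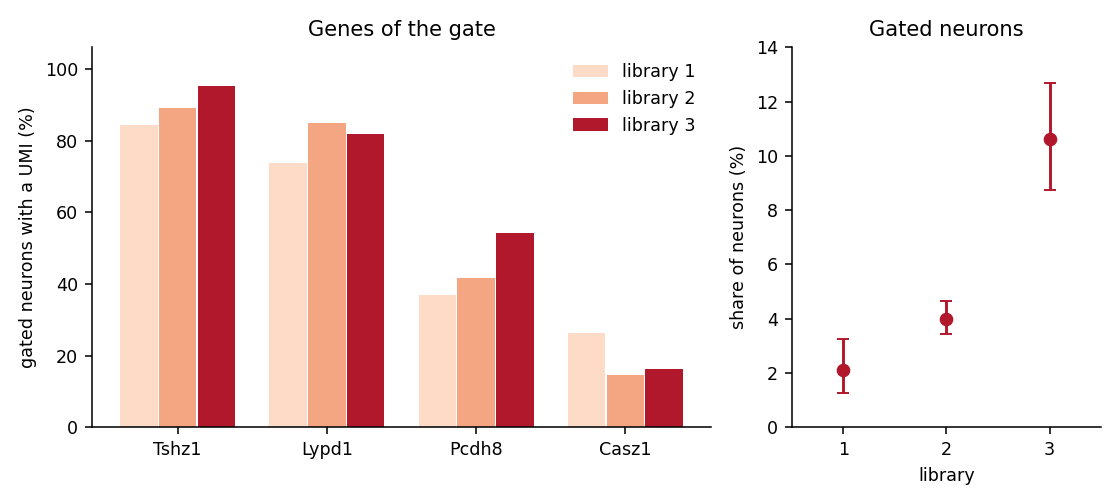
Left, share of gated neurons with a UMI of each gate gene (%) in libraries 1 to 3; right, gated neurons as a share of all neurons (%) per library, with exact 95% binomial intervals as bars. Tshz1 and Lypd1 were found in most gated neurons, Pcdh8 in 45.9% and Casz1 in 15.9% of them, and the share of neurons was 2.11%, 4.01% and 10.6%.

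Against all other neurons, the tachykinin gene Tac2 rose most in the gated neurons, and Erbb4 and Foxp2 were among the 12 largest rises. Of 8658 genes tested, 381 (4.4%) passed an adjusted p of 0.05, with 113 (1.31%) higher and 268 (3.1%) lower in the gated neurons. Values are CPM, a class's count of a gene divided by its total count and scaled to a common total, from the UMIs summed over a class in a library. Of the 8658 genes, 1179 had library values that did not overlap between the classes, so a lack of overlap was not rare. Differences are log2 fold changes ± standard error, with Benjamini-Hochberg adjusted p from edgeR's quasi-likelihood test with the library as block. Foxp2 stood at 1594, 707 and 1216 CPM in libraries 1, 2 and 3 of the gated neurons and at 252, 210.4 and 229 CPM in the other neurons. The gene lies on chromosome 6, from 14901349 to 15441977 (GRCm38, plus strand). The lowest gated value, in library 2, was above all 3 values of the other neurons, and the log2 fold change was 2.07 ± 0.17, adjusted p = 1.85e-08. A Foxp2 UMI was found in 77.9% of gated neurons, 31.0% of other neurons and 14.4% of Adora2a neurons, at median depths of 2401, 2270 and 2904 UMIs. With cells thinned to 1000 UMIs these shares were 53.2%, 18.6% and 6.59%, in the same order. Thinning left out 27 gated, 795 other and 45 Adora2a neurons with fewer than 1000 UMIs.

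Tac2 encodes neurokinin B, a tachykinin peptide. Tac2 reached 59.0, 67.2 and 44.5 CPM in the gated neurons and 3.85, 6.07 and 2.13 CPM in the other neurons, with a log2 fold change of 3.63 ± 0.34, adjusted p = 5.47e-08. The gene lies on chromosome 10, from 127724478 to 127731768 (GRCm38, plus strand). The groups did not overlap, but a Tac2 UMI was present in only 27 of the 290 gated neurons (9.31%), against 0.957% of other neurons. Erbb4, the receptor tyrosine kinase for neuregulins, was even across libraries at 177, 188 and 191 CPM, against 30.8, 39.0 and 46.2 CPM, and rose by 2.14 ± 0.18, adjusted p = 1.94e-08, on the log2 scale. Pbx3, a homeodomain transcription factor, stood at 472, 172 and 317 CPM against 97.2, 70.9 and 98.8 CPM, a log2 fold change of 1.50 ± 0.17, adjusted p = 2.16e-06, with no overlap. The remaining genes that led the rise were Vwc2l, a secreted protein with von Willebrand factor C domains (3.03), Shisa8, an auxiliary protein of AMPA receptors (2.26), and Glra2, a glycine receptor subunit (2.18), as log2 fold changes. They were followed by Tmem255a (2.06), Otof, the calcium sensor otoferlin (1.94), BC048546 (1.86), Col11a1, a collagen chain (1.65), Nfib, a nuclear factor I transcription factor (1.55), and Pcdh15, a protocadherin (1.53). Except for Nfib, the values of these genes did not overlap between the classes.

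Genes lower in the gated neurons included markers of glia, glutamatergic neurons and interneurons. Among the 12 that led the fall were Nrn1, which encodes neuritin, and Tbr1, a transcription factor of cortical glutamatergic neurons, with 3 and 2 UMIs in all gated neurons together. By summed UMIs they were 30.8-fold (95% counting interval 10.5 to 149) and 16.1-fold (4.44 to 133) lower. Npy, the peptide of Sst and Npy interneurons, was at 0, 67.2 and 23.5 CPM against 214, 406 and 312 CPM (-3.02 on the log2 scale). The summed level of 6 oligodendrocyte markers ran from 628 to 1062 CPM in gated neurons and from 1372 to 3464 CPM in other neurons. That of 6 astrocyte markers ran from 354 to 539.6 and 847 to 1892 CPM, and all 12 were lower in the gated neurons. None of these 12 was at 0. The gate removed cells with Slc17a7, Mog or Aqp4 from the gated neurons only. When other neurons were held to the same exclusions, an alternative added after the data were seen, 80 of 7536 genes tested passed (1.06%), 40 higher and 40 lower (0.531% each). Of the 12 oligodendrocyte and astrocyte markers 10 could be tested in that fit by edgeR, and 0 passed, with 5 at an unadjusted p under 0.05. All 10 still had negative log2 fold changes, from -0.59 to -0.13. Foxp2 rose by 1.27 ± 0.19, adjusted p = 0.00775, Tac2 by 2.70 ± 0.30, adjusted p = 0.00223, Erbb4 by 1.56 ± 0.19, adjusted p = 0.00333 and Nfib by 1.76 ± 0.21, adjusted p = 0.00242. Still lower were Calb1, which encodes the calcium buffer calbindin (-1.96), Foxp1 (-1.43), Ebf1 (-2.36) and Htr2c, a serotonin receptor (-1.66), beside Npy (-3.36) and Sst (-2.36). With all 3 libraries 381 genes passed, without library 1 there were 306, and without library 2 or library 3 there were 0 by edgeR, with 828 and 544 genes at an unadjusted p under 0.05.

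**Figure D2:**
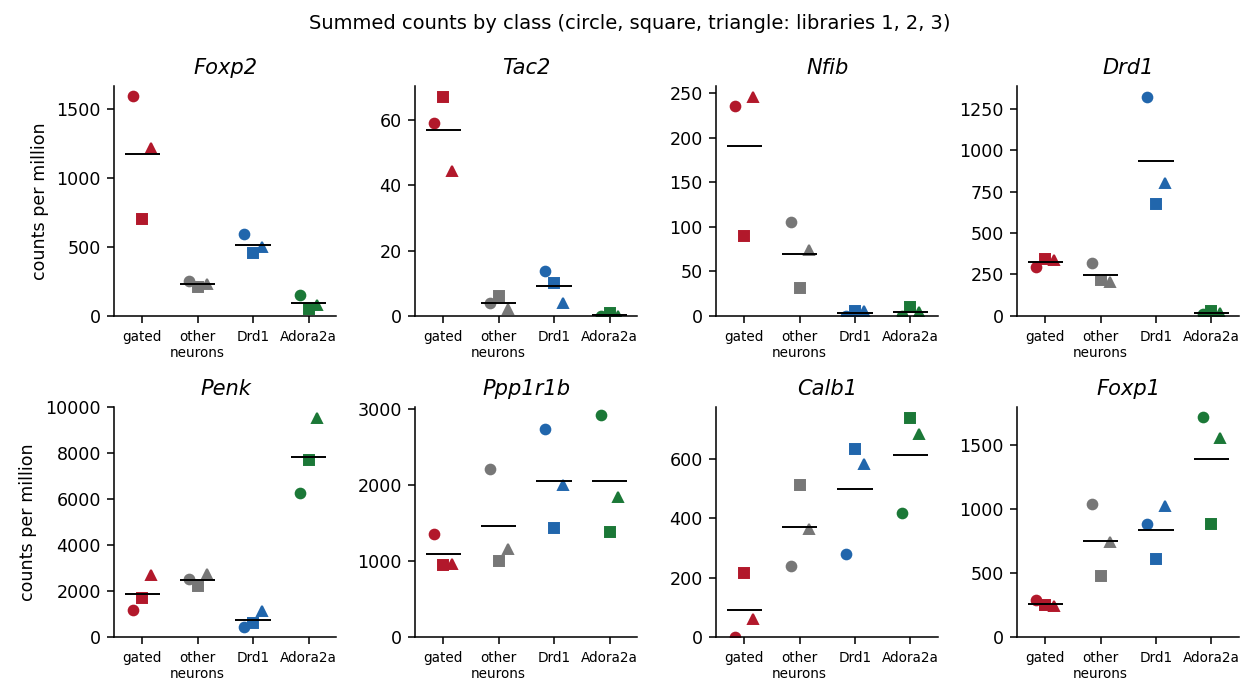
CPM (linear axes from 0) of 8 genes in gated neurons, all other neurons, classic Drd1 neurons and Adora2a neurons; each symbol is the sum of a class in 1 library and the line is the mean of 3 libraries. Foxp2, Tac2 and Nfib were highest on average in the gated neurons, Drd1 (which chose the Drd1 neurons) and Penk lay between the Drd1 and Adora2a classes, and Calb1 and Foxp1 were lowest on average in the gated neurons.

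Classic Drd1 neurons were the first of the spiny classes compared, and were defined as 1104 cells with at least 3 UMIs over Drd1 and Tac1, both detected, under the same exclusions and outside the gate. Against them 101 of 6865 genes tested passed (1.47%), with 58 (0.845%) higher and 43 (0.626%) lower in the gated neurons. Without TMM scaling the split was 62 higher and 82 lower. Library values did not overlap between these classes for 990 of the 6865 genes. Nuclear factor I genes and G protein gamma subunits were among the largest rises. Nfib stood at 236, 89.6 and 246 CPM in gated neurons and at 0, 5.24 and 5.79 CPM in Drd1 neurons, a log2 fold change of 4.58 ± 0.36, adjusted p = 0.000152. Nfib lies on chromosome 4, from 82290173 to 82705750 (GRCm38, minus strand). Nfix, its relative, stood at 354, 26.9 and 112 against 0, 6.05 and 5.79 CPM (3.28 ± 0.52, adjusted p = 0.0115). Both sets of values were apart in every library, and library 2 was the lowest of the gated values for both genes. Gng2 reached 177, 119 and 102 CPM against 6.96, 13.3 and 5.79 CPM (3.38 ± 0.30, adjusted p = 0.00047). Gng4 reached 118, 47.0 and 88.9 CPM against 0, 5.24 and 15.4 CPM (2.98 ± 0.41, adjusted p = 0.00491). Vsnl1, which encodes the calcium sensor visinin-like protein, was at 413, 309 and 455 CPM against 41.7, 99.2 and 73.3 CPM (2.10 ± 0.23, adjusted p = 0.00183). Also raised were Vwc2l (4.08), Sphkap, an anchoring protein of protein kinase A (2.96), Tac2 (2.79), the phosphatase Ppm1e (2.57), BC048546 (2.38), Shisa8 (2.18) and Pcdh15 (2.17). Foxp2, at 598, 454 and 502 CPM in Drd1 neurons, was higher in the gated neurons by 0.96 ± 0.19, adjusted p = 0.0342, and its values did not overlap between the classes.

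The peptide gene Penk was higher and the peptide gene Pdyn lower in the gated neurons. Penk, the enkephalin precursor of indirect-pathway neurons, was at 1180.5, 1690.3 and 2723 CPM in gated neurons and at 452, 622 and 1158 CPM in Drd1 neurons, higher by 1.30 ± 0.19, adjusted p = 0.00801. Pdyn, the dynorphin precursor, was at 236, 302 and 296 CPM against 501, 562 and 659.9 CPM, with a log2 fold change of -1.04 ± 0.18, adjusted p = 0.0189. Among gated neurons inside the Drd1 gate, described further on, Pdyn did not pass (-0.38 ± 0.18, adjusted p = 0.571). Neither gene overlapped between the classes, and Penk was highest in library 3 of both. Lower genes included Calb1, at 0, 215 and 60.2 CPM against 278, 631 and 581 CPM (-2.21 ± 0.31, adjusted p = 0.00543). Foxp1, a forkhead factor of most spiny neurons, was at 295, 251 and 243 CPM against 884, 608 and 1028 CPM (-1.68 ± 0.21, adjusted p = 0.00491). Calb1 had no UMI in library 1 of the gated neurons and stayed below all Drd1 values in libraries 2 and 3. Ebf1, a transcription factor of direct-pathway neurons, fell by 1.89 ± 0.32, adjusted p = 0.0126, on the log2 scale. Kitl, the ligand of the Kit receptor (-2.96), Gcnt2, a glycan-branching enzyme (-2.65), Onecut2 (-2.49), Ptchd4 (-2.46), Dlk1, a Notch family ligand (-1.95) were also lower, and so were the synaptic vesicle gene Sv2b (-1.90), Cdh7, a cadherin (-1.87), Zfp503 (-1.83), Nexn (-1.82) and Lpl, lipoprotein lipase (-1.79). Without library 1 this comparison gave 388 genes, and without library 2 or library 3 it gave 0 by edgeR, with 619 and 496 at an unadjusted p under 0.05.

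Since transcripts of 2 nuclear factor I genes were raised, the 250 bases before the RefSeq start (GRCm38.p6, the build of mm10) were searched for TTGGCA, the core of the nuclear factor I binding motif, on both strands. Of the 12 leading raised genes over Drd1 neurons, 10 had a promoter entry and 3 held the binding motif (Tac2, Gng4 and Shisa8), and of the 12 leading lowered genes 8 had an entry and 1 held it (Gcnt2). In all 27025 genes with an entry the share was 14.1%. The forkhead motif TGTTTAC was found in 0 of the raised and 1 of the lowered genes (Dlk1), against 3.54% of all genes. The 3 windows with a binding motif follow, 5′ to 3′, with the binding motif in capitals.
Tac2, chr10:127724228-127724477, plus strand: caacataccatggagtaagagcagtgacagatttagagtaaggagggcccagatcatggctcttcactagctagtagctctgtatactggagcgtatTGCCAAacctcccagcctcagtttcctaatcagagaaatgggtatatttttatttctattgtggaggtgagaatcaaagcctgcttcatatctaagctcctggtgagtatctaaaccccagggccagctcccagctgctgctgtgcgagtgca
Gng4, chr13:13783809-13784058, plus strand: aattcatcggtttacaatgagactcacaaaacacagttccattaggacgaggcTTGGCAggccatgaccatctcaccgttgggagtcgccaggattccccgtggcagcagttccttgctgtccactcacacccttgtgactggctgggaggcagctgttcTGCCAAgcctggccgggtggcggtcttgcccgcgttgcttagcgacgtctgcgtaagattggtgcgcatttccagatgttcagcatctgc
Shisa8, chr15:82212816-82213065, minus strand: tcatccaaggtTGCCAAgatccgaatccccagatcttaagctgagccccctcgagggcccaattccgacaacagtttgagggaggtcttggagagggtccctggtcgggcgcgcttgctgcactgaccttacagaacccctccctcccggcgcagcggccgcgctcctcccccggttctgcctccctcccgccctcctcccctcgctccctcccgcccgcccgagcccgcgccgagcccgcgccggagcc
Tac2 and Shisa8 held a single copy each, 153 and 239 bases before the start, and Gng4 held a copy at 197 and another at 90 bases. Gng4 also had another RefSeq start, whose window (chr13:13784057-13784306, plus strand) held no match of either motif. A match describes these letters only; binding was not measured.

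The gated neurons held cells with and without a Drd1 UMI, and the lack of a UMI does not show that a cell lacks the transcript. A Drd1 UMI was found in 128 of 290 gated neurons (44.1%), in 6.25% of Adora2a neurons and, by definition, in all classic Drd1 neurons. Drd2 had 0 UMIs in gated neurons but was also found in only 7 of 576 Adora2a neurons, so a difference was not detectable at this depth; 3 counts would give a share of 1.03% of gated neurons. A total of 115 gated neurons (39.7%) also passed the gate of the Drd1 neurons, 1, 67 and 47 in libraries 1 to 3, and 175 did not. The split was made after the data were seen and is a description, with values given for libraries 2 and 3. Nfib was at 148 and 472 CPM in the cells that did not pass and at 34.7 and 30.7 CPM in those that did. Nfix was at 50.8 and 204 against 4.34 and 25.5 CPM, and Gng2 at 203 and 193 against 39.1 and 15.3 CPM. Sp9, a transcription factor of indirect-pathway neurons, was at 120.2 and 123 against 8.68 and 46.0 CPM. All 4 were higher in the cells outside the Drd1 gate in both libraries. So were Trh, the thyrotropin-releasing hormone precursor (102 and 69.7 against 8.68 and 10.2 CPM), and Cpne4, a copine known from the islands of Calleja (78.6 and 123 against 17.4 and 20.4 CPM). Ppp1r1b, which encodes the spiny neuron phosphoprotein DARPP-32, went the other way, at 652 and 472 against 1237 and 1420.2 CPM, as did Otof (32.4 and 26.8 against 43.4 and 92.0 CPM). Foxp2 overlapped between the sets, at 753 and 1115 CPM in the cells that did not pass and 664 and 1313 CPM in those that did. Sums of Drd3 and Rxfp1, further genes of the islands, were 0 UMIs in both sets. A Ppp1r1b UMI was found in 57.7% of the cells that did not pass, with a median depth of 1952 UMIs, and in 93.0% of those that did, with 3334.

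**Figure D3:**
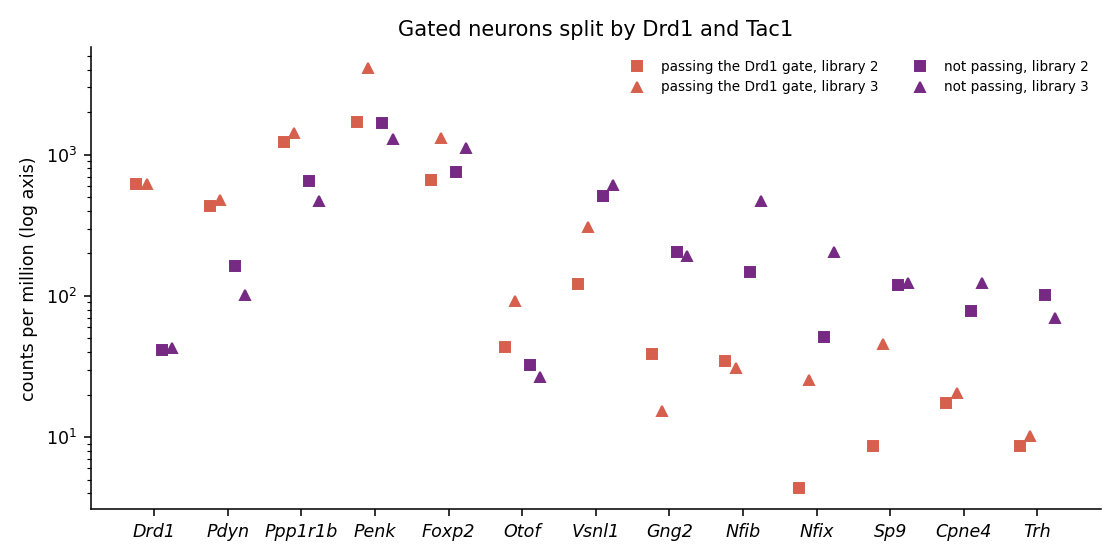
CPM (log axis) of 13 genes in gated neurons that pass the Drd1 gate (orange) and that do not (purple), in library 2 (squares) and library 3 (triangles). Nfib, Nfix, Gng2, Sp9, Cpne4 and Trh were higher outside the Drd1 gate in both libraries, and Pdyn, Ppp1r1b and Otof were higher inside it. Drd1 is shown because it defines the split, and Foxp2 overlapped.

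Restricting the gated neurons to the 115 that passed the Drd1 gate, again an alternative added after the data were seen, left libraries 2 and 3. With these 2 libraries, edgeR's p-values lean on a spread shared over genes. They are not comparable with those from all libraries. Of 6613 genes tested, 85 passed (1.29%), with 53 (0.801%) higher than in classic Drd1 neurons and 32 (0.484%) lower. Of the genes that passed with all gated neurons, 86 could be tested here and 56 passed again with the same sign. Penk rose by 1.66 ± 0.19, adjusted p = 8.95e-15, Foxp2 by 0.99 ± 0.17, adjusted p = 1.28e-05, Tac2 by 2.41 ± 0.51, adjusted p = 0.000501, Erbb4 by 1.42 ± 0.29, adjusted p = 0.000246 and Otof by 1.39 ± 0.39, adjusted p = 0.0305. Nfib was still higher, by 2.62 ± 0.60, adjusted p = 0.00200, and Gng2, Nfix, Gng4 and Vwc2l had too few counts to be tested. Lower were Ebf1 (-2.50 ± 0.49, adjusted p = 0.000135), Calb1 (-1.53 ± 0.20, adjusted p = 1.24e-10), Foxp1 (-1.25 ± 0.19, adjusted p = 7.54e-08), Htr2c (-1.72 ± 0.36, adjusted p = 0.000479) and the ephrin receptor Epha4 (-1.15 ± 0.25, adjusted p = 0.00056). Pdyn, with a log2 fold change of -0.38 ± 0.18, adjusted p = 0.571, and Ppp1r1b, with -0.32 ± 0.18, adjusted p = 0.749, did not pass.

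**Figure D4:**
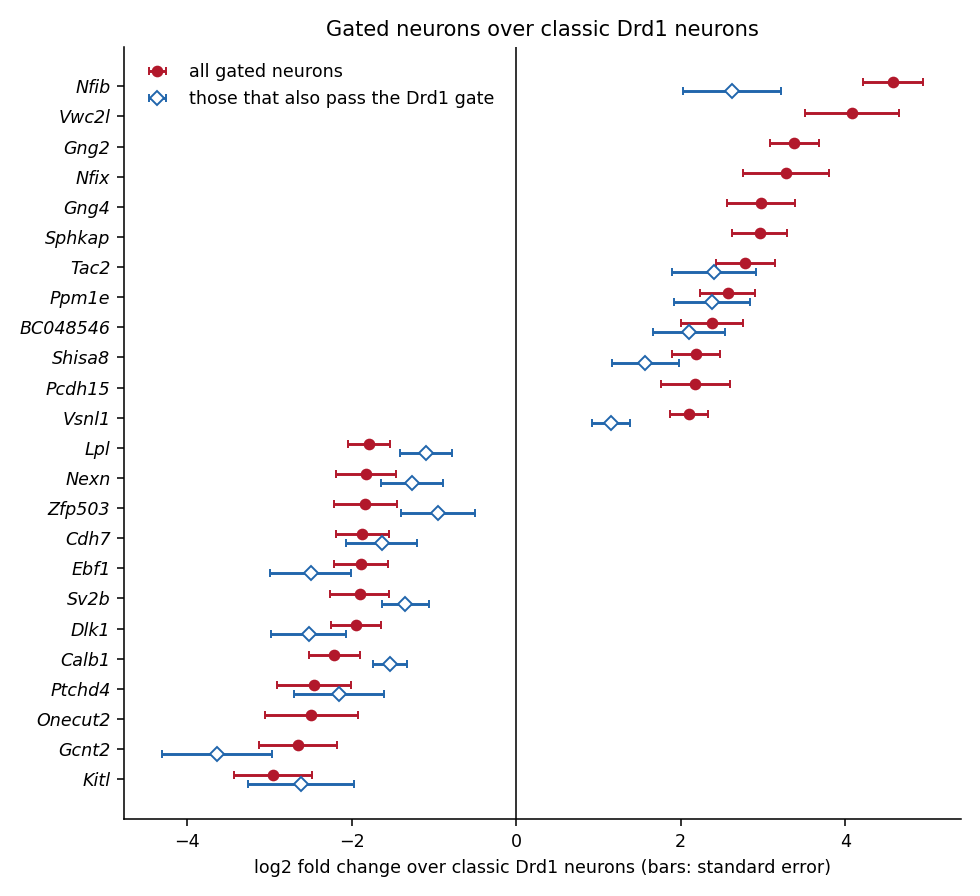
Log2 fold change with its standard error over classic Drd1 neurons for the 24 leading genes, for all gated neurons (filled circles) and for the 115 that also pass the Drd1 gate (open diamonds; absent where too few counts were left to test). Nfib was at 4.58 and 2.62 in the 2 sets, Tac2 at 2.79 and 2.41 and Ebf1 at -1.89 and -2.50.

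Adora2a neurons, 576 cells with at least 3 UMIs over Adora2a and Gpr6, were the other spiny class compared. Of 6823 genes tested, 359 passed (5.26%), with 150 (2.2%) higher and 209 (3.06%) lower in the gated neurons. Library values did not overlap between these classes for 1006 of the 6823 genes. All 5 tested genes of the direct-pathway list were higher, among them Drd1 at 295, 343 and 337 CPM against 10.2, 28.9 and 16.1 CPM (3.79 ± 0.21, adjusted p = 6.35e-08). Pdyn (3.54 ± 0.33, adjusted p = 1.79e-05) and Tac1 (3.02 ± 0.16, adjusted p = 5.26e-08) were others. The Drd1 values lay close together in the gated neurons and far above every Adora2a value. Foxp2 showed a difference of 3.71 ± 0.18, adjusted p = 3.26e-08, from 153, 53.1 and 78.7 CPM in Adora2a neurons, and Erbb4 one of 3.63 ± 0.27, adjusted p = 1.46e-06, from 0, 15.3 and 16.1 CPM. Tac2 had 1 UMI in all Adora2a neurons, a ratio of 104 with a counting interval of 17.8 to 4203, and Vwc2l had 2 UMIs, a ratio of 34.8 (8.87 to 299). Sez6l (4.10), Nfib (4.05), Tmem255a (3.87), Fxyd6, a regulator of the sodium pump (3.77), Gng2 (3.74), Gng4 (3.73) and Slc35d3 (3.61) were the other leading rises. Penk stood at 6278, 7709 and 9556 CPM in Adora2a neurons, above all gated values, and had a log2 fold change of -2.10 ± 0.19, adjusted p = 1.79e-05. For Penk the gated neurons lay between both spiny classes, with no overlap on either side.

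The purinergic receptor P2ry1 led the falls against Adora2a neurons, at 0, 6.72 and 2.62 CPM against 91.9, 71.5 and 103 CPM (-4.11 ± 0.46, adjusted p = 9.23e-05). Htr2c was at 0, 40.3 and 28.8 CPM against 296, 148 and 262 CPM (-2.55 ± 0.29, adjusted p = 8.01e-05). Foxp1 was at 295, 251 and 243 CPM against 1725, 888 and 1561 CPM (-2.29 ± 0.19, adjusted p = 1.03e-05). Calb1 was at 0, 215 and 60.2 CPM against 419, 736 and 684 CPM (-2.41 ± 0.27, adjusted p = 7.85e-05). None of these 4 genes overlapped between the classes, as was so for 1006 of all 6823 genes tested. Gcnt2 (-3.01), Kitl (-2.51), the POU factor Pou3f1 (-2.26), Cpne8 (-2.23), March1, a ubiquitin ligase (-2.18), B3gat1 (-2.18), Onecut2 (-2.18) and the zinc finger homeobox gene Zfhx3 (-2.18) followed. Without library 1 there were 358 genes, and without library 2 or library 3 there were 0 by edgeR, with 797 and 526 at an unadjusted p under 0.05.

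Genes of spiny neuron identity were compared first; the shares of all genes tested that were higher and lower stand beside each list's count. Against all other neurons 2 of 19 tested were higher and 2 lower (over all genes 1.31% and 3.1%, median log2 fold change 0.01), with Meis2 (0.76) and Gad1, the GABA-synthesising enzyme (0.62), higher and Foxp1 (-1.37) and Rasd2 (-1.03) lower. Against Drd1 neurons 0 of 19 tested were higher and 2 lower (over all genes 0.845% and 0.626%, median log2 fold change -0.52), and against Adora2a neurons 0 of 19 tested were higher and 12 lower (over all genes 2.2% and 3.06%, median log2 fold change -0.71). The medians over all genes tested were -0.03, -0.03 and -0.02. Those lower against Adora2a neurons included Ptpn5, a striatal phosphatase (-1.11), the adenylyl cyclase Adcy5 (-0.98), Pde10a (-0.74) and Ppp1r1b (-0.85). Ppp1r1b was at 1358, 954 and 957 CPM in the gated neurons and at 2727, 1431 and 1991 CPM in Drd1 neurons, where the difference did not pass (-0.92 ± 0.21, adjusted p = 0.0560).

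The list of striatal matrix genes, which mark the compartment around striosomes, had no higher gene. Against all other neurons 0 of 6 tested were higher and 3 lower (over all genes 1.31% and 3.1%, median log2 fold change -0.88). Against Drd1 neurons 0 of 6 tested were higher and 3 lower (over all genes 0.845% and 0.626%, median log2 fold change -1.03), and against Adora2a neurons 0 of 6 tested were higher and 4 lower (over all genes 2.2% and 3.06%, median log2 fold change -1.23). Epha4, Sv2b and Calb1 were lower in each comparison, and Id4 joined them against Adora2a neurons (-1.19). For striosome genes outside the gate, 2 of 4 tested were higher and 0 lower (over all genes 1.31% and 3.1%, median log2 fold change 0.80) against all other neurons, namely Tac1 (1.16) and the semaphorin Sema5b (1.52). Against Drd1 neurons 0 of 2 tested were higher and 1 lower (over all genes 0.845% and 0.626%, median log2 fold change -0.45), with Pdyn the lower gene. Oprm1, the mu opioid receptor used to mark striosomes, had 1 UMI in all gated neurons and could not be tested. Of the list of eccentric spiny neuron genes outside the gate, 3 could be tested and all 3 were higher against all other neurons. Otof was at 177, 38.1 and 60.2 CPM against 13.5, 17.3 and 7.60 CPM (1.94 ± 0.36, adjusted p = 0.00102). Col11a1 was at 118, 35.8 and 52.3 against 9.62, 14.6 and 13.4 CPM (1.65 ± 0.32, adjusted p = 0.00163). Cacng5 was at 177, 29.1 and 47.1 against 12.5, 14.1 and 14.3 CPM (1.48 ± 0.35, adjusted p = 0.00969). None overlapped between the classes, though a UMI of Otof was found in only 35 gated neurons, one of Col11a1 in 34 and one of Cacng5 in 32. Against Drd1 neurons only Cacng5 passed (1.89 ± 0.39, adjusted p = 0.0380), with Otof at 1.02 ± 0.37, adjusted p = 0.295 and Col11a1 at 1.23 ± 0.45, adjusted p = 0.298.

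Among forebrain transcription factors, 9 of 33 tested were higher and 6 lower (over all genes 1.31% and 3.1%, median log2 fold change 0.18) against all other neurons. Beside Foxp2, Nfib, Nfix and Pbx3, the higher ones included Meis2, Sp9 (1.07), the retinoid receptor Rxrg (0.98) and Dlx5 (0.87), and the lower ones included Lmo3 (-1.68), Etv1 (-1.60), Zfhx3 (-1.38) and Ebf1 (-1.45). Against Drd1 neurons 5 of 28 tested were higher and 2 lower (over all genes 0.845% and 0.626%, median log2 fold change -0.05), and against Adora2a neurons 6 of 26 tested were higher and 6 lower (over all genes 2.2% and 3.06%, median log2 fold change -0.06). Sp9 was at 0, 62.7 and 83.7 CPM in gated neurons and 48.7, 7.26 and 3.86 CPM in Drd1 neurons (2.94 ± 0.51, adjusted p = 0.0187); its value was 0 in library 1 of the gated neurons, so the groups overlapped. Of peptides and their receptors, 3 of 12 tested were higher and 4 lower (over all genes 1.31% and 3.1%, median log2 fold change -0.25) against all other neurons: Tac2, Tac1 and Trh (2.36) were higher, and Npy, Sst (-1.98), Cck (-2.73) and the neurotensin receptor Ntsr2 (-1.27) lower. Trh had 0 UMIs in library 1 of the gated neurons and 53.7 and 39.2 CPM in libraries 2 and 3, against 17.3, 8.90 and 7.60 CPM in other neurons.

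Receptors and channels were counted list by list. Of receptors for dopamine, serotonin and acetylcholine, 1 of 7 tested were higher and 1 lower (over all genes 1.31% and 3.1%, median log2 fold change -0.02) against all other neurons, the higher one being Adra2c, an adrenergic receptor that the list also holds (0.65). The lower one was Htr2c, at 0, 40.3 and 28.8 CPM against 189, 112 and 137 CPM (-1.91 ± 0.27, adjusted p = 3.44e-05). Against Adora2a neurons 2 of 6 tested were higher and 2 lower (over all genes 2.2% and 3.06%, median log2 fold change -0.41), with Drd1 and Adra2c (0.78) higher and Htr1b (-0.87) and Htr2c lower. For glutamate receptors 1 of 18 tested were higher and 0 lower (over all genes 1.31% and 3.1%, median log2 fold change 0.04) against all other neurons, with the NMDA receptor subunit Grin2a higher (0.83 ± 0.16, adjusted p = 0.00163). Against Adora2a neurons 0 of 17 tested were higher and 5 lower (over all genes 2.2% and 3.06%, median log2 fold change -0.24), and Grik3 (-1.58), Grm3 (-1.30), Grm5 (-0.85), Gria3 (-0.73) and Gria2 (-0.52) were lower. GABA-A receptor subunits gave Gabrg3 higher (0.83) and Gabrg1 lower (-2.56), among 11 tested against all other neurons, and Gabra4 (-1.15), Gabrb1 (-0.97) and Gabrd (-0.90) lower of 10 against Adora2a neurons. Potassium channel genes included Kcnj3, a subunit of G protein-gated channels, which was higher against Drd1 neurons, at 177, 64.9 and 49.7 against 27.8, 16.1 and 23.2 CPM (1.75 ± 0.33, adjusted p = 0.0261). Against Adora2a neurons 1 of 24 tested were higher and 4 lower (over all genes 2.2% and 3.06%, median log2 fold change -0.45). The lower ones were Kcnip2 (-0.84), Kctd8 (-3.28), Kctd12 (-1.22) and Kcnk2 (-1.20 ± 0.18, adjusted p = 0.000728). Of 20, 19 and 18 calcium channel subunits tested in the 3 comparisons, 1, 1 and 0 were higher and 0, 0 and 1 lower, where 4.4%, 1.47% and 5.26% of all genes passed.

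Surface molecules that guide axons and join synapses were counted in the same way. In the protocadherin and cadherin list, without Pcdh8, 2 of 16 tested were higher and 1 lower (over all genes 1.31% and 3.1%, median log2 fold change -0.02) against all other neurons. There 2 of 15 tested were higher and 1 lower (over all genes 0.845% and 0.626%, median log2 fold change -0.23) against Drd1 neurons, and 3 of 16 tested were higher and 2 lower (over all genes 2.2% and 3.06%, median log2 fold change -0.04) against Adora2a neurons. Pcdh7 was higher in each (0.62, 0.87 and 1.03), at 177, 219 and 191 CPM in gated neurons and 41.7, 123 and 110.0 CPM in Drd1 neurons, and Cdh7 was lower in each (-1.22, -1.87 and -1.67). Among guidance and adhesion genes, 3 of 44 tested were higher and 5 lower (over all genes 1.31% and 3.1%, median log2 fold change -0.08) against all other neurons. Of the same list 2 of 35 tested were higher and 2 lower (over all genes 0.845% and 0.626%, median log2 fold change -0.27) against Drd1 neurons, and 4 of 38 tested were higher and 6 lower (over all genes 2.2% and 3.06%, median log2 fold change -0.22) against Adora2a neurons. Ntng1, the netrin-G1 gene, was at 59.0, 60.4 and 126 CPM in gated neurons and 55.7, 16.9 and 30.9 CPM in Drd1 neurons (1.78 ± 0.30, adjusted p = 0.0159). Nrxn2, a presynaptic neurexin, was at 531, 188 and 251 against 167, 92.3 and 110.0 CPM (1.13 ± 0.17, adjusted p = 0.0104). The Slit receptor Robo1 was higher against all other neurons (1.22) and against Adora2a neurons (1.34), while Robo2 was lower in both (-1.27 and -1.22). The ephrin receptor Epha7 was lower against all 3 classes (-1.33, -1.73 and -1.60). These comparisons share the gated neurons, so a gene that stands in several of them was not found independently.

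Markers of other cell types were summed per class and library. Glutamatergic neuron markers summed to 0 to 15.7 CPM in the gated neurons and 86.2 to 199.6 CPM in other neurons. The exclusion of Slc17a7 applied to the gated neurons alone, and in other neurons under the same exclusions the sum was 3.75 to 19.4 CPM. Cholinergic markers summed to 0 to 6.72 against 1.92 to 45.1 CPM, with Chat and Slc18a3 at 0. Markers of Sst and Npy interneurons summed to 0 to 209 against 713 to 959.9 CPM, with Chodl at 0. Markers of Pvalb interneurons summed to 0, 42.5 and 60.2 CPM against 43.3, 51.0 and 70.5 CPM in libraries 1, 2 and 3, lower in each. The sums were 0, 17.7 and 7.72 CPM in Drd1 neurons and 10.2, 6.43 and 4.03 CPM in Adora2a neurons. Against these 2 spiny classes the gated neurons were thus higher in libraries 2 and 3. Those of the islands of Calleja summed to 0, 47.0 and 70.6 CPM, all from Cpne4, against 20.2, 40.3 and 68.1 CPM, lower in library 1 and higher in the others. In other neurons under the same exclusions these island sums were 11.3, 25.8 and 18.8 CPM. Drd1 neurons had 0, 17.7 and 7.72 CPM and Adora2a neurons 0, 6.43 and 0 CPM. All 3 classes were below the gated neurons in libraries 2 and 3. Neuroblast markers, all 5 of which had UMIs, summed to 354, 190.3 and 290.4 CPM in gated neurons, 145, 151 and 204 CPM in other neurons and 97.4, 122 and 122 CPM in Drd1 neurons. These sums were higher in the gated neurons in 3 of 3 libraries against both classes, though library 1 held only 16942 UMIs of gated neurons. Gene by gene, 2 of 4 tested were higher and 0 lower against all other neurons (over all genes 1.31% and 3.1%). Of these 4, 1 had a negative log2 fold change. Against Drd1 neurons 0 of 3 tested passed, and against Adora2a neurons 1 of 3 was higher and 0 lower (over all genes 2.2% and 3.06%). Dcx, a microtubule protein of migrating neurons, was higher against all other neurons (0.98 ± 0.28, adjusted p = 0.0430), and so was the transcription factor Sox11 (0.80 ± 0.22, adjusted p = 0.0273). Tubb2b, the tubulin gene of the same list, was higher against Adora2a neurons (1.46 ± 0.35, adjusted p = 0.0255). Nfib and Nfix, raised above, are also expressed in neuroblasts and glia; the part of such cells in those differences was not tested.

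How gated neurons differed among themselves was asked by splitting them on the genes of the gate: 210 had more Tshz1 than Pcdh8 and Casz1 UMIs together, 42 had fewer and 38 had equal numbers. Only libraries 2 and 3 held at least 10 cells on each side, with 117 and 81 cells against 26 and 13. Of 4082 genes tested, 0 passed (0%) by edgeR and 0 by DESeq2, with 371 at an unadjusted p under 0.05 by edgeR; 35 passed by edgeR without the cells of the highest doublet scores, and 6 among cells of at least 1000 UMIs. Drd1 was at 386 and 389 CPM in the cells leaning to Tshz1 and at 217 and 159 CPM in those leaning to Pcdh8 and Casz1, a log2 fold change of 1.03 ± 0.26, adjusted p = 0.437. Foxp2 was at 707 and 1261 against 480.3 and 939.9 CPM (0.47 ± 0.16, adjusted p = 0.485), and Tac2 at 59.7 and 20.7 against 77.5 and 143 CPM (-1.46 ± 0.54, adjusted p = 0.499). The direction was the same in both libraries for each of these 3 genes, and none passed the test.

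The reporter system was detected in gated neurons in every library. A UMI of any of the 3 construct features (mCherry, TEV or tTA) was found in 31.6%, 49.4% and 61.9% of gated neurons in libraries 1, 2 and 3 and in 29.8%, 52.7% and 55.9% of other neurons. In oligodendrocytes, a class used to show the background, it was found in 1.72%, 13.7% and 10.8%, at median depths of 956, 1797 and 3793.5 UMIs. The difference from other neurons was 1.47 ± 4.67 percentage points (SD, n = 3; exact sign-flip permutation p = 0.75, 0.9 adjusted over 12 comparisons; the smallest p that 3 libraries allow is 0.25), higher in 2 of 3 libraries. Against Drd1 neurons the difference was -5.20 ± 7.97 points and against Adora2a neurons -4.90 ± 9.23 points, each lower in 2 of 3 libraries (exact sign-flip permutation p = 0.5, 0.9 adjusted). With a gate sum of at least 4 these were -11.3 and -11.0 points, lower in 3 of 3 libraries (exact p = 0.25, the smallest possible). The sign of the difference from other neurons turned with a gate sum of at least 4 (-4.65 points) and without library 3 (-0.774 points). The first of these means came from -15.5, -7.09 and 8.62 points in libraries 1, 2 and 3. An mCherry UMI was found in 10.5%, 19.9% and 10.5% of gated neurons, 5.55%, 19.2% and 10.6% of other neurons and 6.31%, 22.7% and 15.3% of Drd1 neurons. The oligodendrocyte background for mCherry was 0.985%, 7.43% and 5.15%. As a sum, mCherry was at 118, 150.0 and 44.5 CPM in gated neurons and 557, 488 and 69.5 CPM in Drd1 neurons (-1.51 ± 0.25, adjusted p = 0.0153). A single Drd1 cell of library 2 held 719 of the 1210 mCherry UMIs there. Without cells of 50 or more mCherry UMIs, an alternative chosen after the data were seen, the log2 fold change was 0.10 (adjusted p = 0.934).

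**Figure D5:**
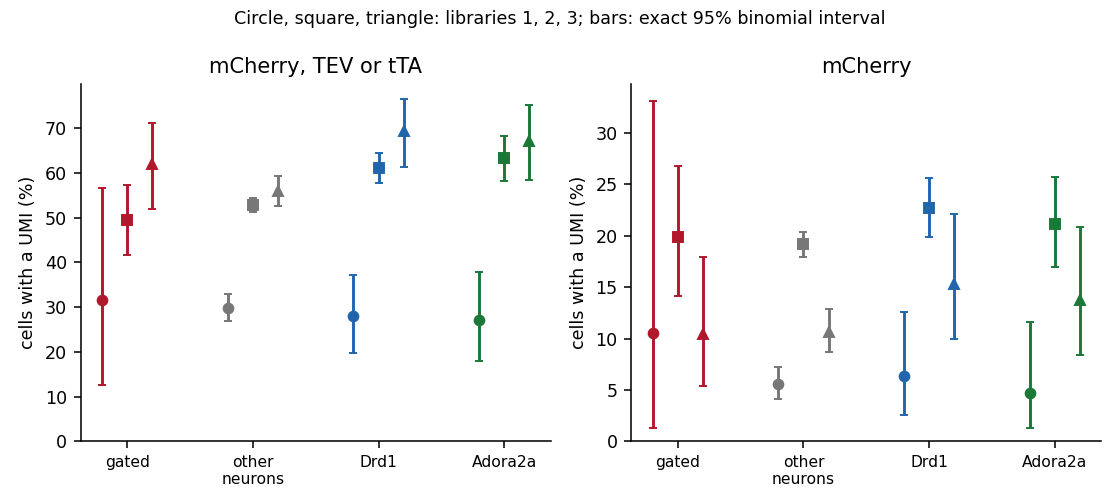
Share of cells (%) with a UMI of any construct feature (left) and of mCherry (right) in gated neurons, other neurons, Drd1 neurons and Adora2a neurons; symbols are libraries 1 to 3 and bars are exact 95% binomial intervals, which cover counting error only. The intervals of gated and other neurons overlapped in every library, and library 1 was lowest in each class for any construct.

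Immediate early genes, which report recent activity, gave 0 higher and 1 lower of 18 tested against all other neurons, a share near the 4.4% of all genes that passed. The lower one was Nptx2, a secreted pentraxin. Nptx2 was at 0, 13.4 and 28.8 against 31.8, 55.8 and 67.8 CPM (-1.62 ± 0.33, adjusted p = 0.00281). Against Drd1 neurons 1 of 15 tested was higher and 0 lower (over all genes 0.845% and 0.626%, median log2 fold change 0.07). The higher one was Fos, at 0, 80.6 and 152 CPM against 13.9, 39.1 and 57.9 CPM (1.19 ± 0.26, adjusted p = 0.0422). It had no UMI in library 1 of the gated neurons and did not pass among those inside the Drd1 gate (0.69 ± 0.34, adjusted p = 0.629). Against Adora2a neurons 2 of 14 tested were higher and 1 lower (over all genes 2.2% and 3.06%, median log2 fold change -0.26). Of these 14 genes, 10 had negative log2 fold changes and 4 positive ones. Fos (1.03 ± 0.25, adjusted p = 0.0243) and Jun (0.99 ± 0.24, adjusted p = 0.0275) were higher and Nptx2 lower (-1.58 ± 0.37, adjusted p = 0.0223). Of interferon-response genes, 1 was higher and 4 lower of 16 tested against all other neurons, where 1.31% of all genes were higher and 3.1% lower. The lower ones were Ifit3 (-1.72), Ifi27 (-1.30), Ifitm3 (-0.96) and Iigp1 (-1.79). Glial markers were lower in the same comparison, and with other neurons under the same exclusions 0 was higher and 1 lower of 15 tested, the lower one being Ifitm3 (-1.13 ± 0.20, adjusted p = 0.0189). Against Drd1 neurons Isg15, a ubiquitin-like protein, was at 0, 255 and 123 against 13.9, 128 and 57.9 CPM (1.02 ± 0.21, adjusted p = 0.0342). It had 0 UMIs in the 19 gated neurons of library 1, so the groups overlapped, and in the Drd1-gated cells of libraries 2 and 3 it was again higher (1.12 ± 0.23, adjusted p = 0.000479). With 10 and 7 interferon genes tested, 10 and 7 had positive log2 fold changes, and 2 were higher against Drd1 neurons and 3 against Adora2a neurons, among them B2m (0.80), where 0.845% and 2.2% of all genes were higher.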

How the data were processed

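Single-cell RNA of 3 samples was read from the deposited matrix of whole-number UMI counts per gene and cell, in which the authors had not normalised the values, per the file headers; the header names Cell Ranger 3.0.0, and the submitters' processing notes name Cell Ranger 3.0 and mm10. The barcode suffix gives the library, but not which numbered replicate it is. Cells were kept by the thresholds on genes (300) and mitochondrial share (20%) and gated as described above, and raw counts were summed per class and library, so deeper cells weigh more. Sums were tested with edgeR 4.0.16 (R 4.3.3; quasi-likelihood, TMM, low-count filter, library as block because both arms are cells of 1 library), with the 13 gate genes left out, and Drd1 and Tac1 too against Drd1 neurons. p-values measure the spread between libraries, which may be technical. Named genes were the 12 largest rises and 12 largest falls with adjusted p under 0.05, the same sign in every library and at least 30 UMIs in the higher arm, beside members of the gene lists. The members and lists were chosen with earlier results of these data known. Doublets were scored with Scrublet (scanpy 1.11.5, expected rate 0.06) and kept; 7 gated neurons had scores in the top 0.8% per 1000 cells. Alternatives included DESeq2 1.42.0. The edgeR script was tested on simulated data. Intervals cover counting error only. Promoter sequences are RefSeq's, and gene positions are from the GRCm38 annotation. Some genes of the lists are not reported here.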

Additional observations from a re-analysis of the deposited data

How the results depend on the processing

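With 3 libraries, each of the comparisons with other classes rests on libraries 2 and 3. Leaving out 1 library gave 0 to 306 genes against all other neurons (381 with all), 0 to 388 against Drd1 neurons (101) and 0 to 358 against Adora2a neurons (359). DESeq2 gave 98, 57 and 99 genes, matching comparator cells on UMIs 162, 35 and 182, and the fit with no replicate block 40, 38 and 85; the block follows from the design. A gate sum of at least 4 gave 143 genes against all other neurons and 305 against Drd1 neurons. Other neurons under the same exclusions gave 80. Against Drd1 neurons, cells of at least 1000 UMIs gave 349 and the package-default legacy fit 250; at that UMI minimum and at a gate sum of 4 libraries 2 and 3 alone remain. The split on Tshz1 against Pcdh8 and Casz1 gave 0 genes, 6 among cells of at least 1000 UMIs and 35 without the highest doublet scores; leaving out a library was not run for it, as 1 pair would remain. For named genes, 2108 of 3029 alternative values kept direction and call, 920 kept direction but lost the call, and 1 reversed: mCherry over Drd1 neurons, 0.10 without cells of 50 or more mCherry UMIs. The construct difference of 1.47 points became -4.65 with a gate sum of at least 4, where library 1 held only 7 gated neurons. With 1 library left out it ran from -0.774 to 3.88, and the mean share of neurons ran from 3.06% to 7.31%. The causes were not tested. Library 1, with 16942 UMIs, limits what can be read there.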

Other observations

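Cells that the exclusions kept out of the gated neurons are described here by values alone. Of cells with the gate sum and 2 gate genes, 51 were left out for an Adora2a or Gpr6 UMI, and 45.1% of them had a Foxp2 UMI. A further 57 were left out for a UMI of Slc17a7, Mog or Aqp4, and 75.4% of them had a Foxp2 UMI. A gate sum of at least 3 in 1 gene alone was found in 127 cells, of which 73.2% had a Foxp2 UMI, against 77.9% of the 290 gated neurons.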
